A study of Mus musculus with 92 samples.

Results

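Expression of 6 genes was followed across cultured myeloid cells and brain macrophages of the mouse: the scavenger receptors Msr1, Marco, Cd36, Scarb1 and Cd68, and the secreted macrophage protein Cd5l. They were taken by symbol from the 29956 named genes of the expression table. The set was chosen by measured values, because Msr1 was higher and Cd5l lower in macrophages edited at Adar1 than in their controls. That contrast is therefore given as a description with no test.

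The table holds bulk RNA sequencing of 92 libraries in 25 groups. The study asked how conditionally immortalised macrophages compare with primary cells, how both change in the brain, and what loss of Adar1 does to them. Bone marrow (BM) progenitors and BM monocytes came from wild-type FVB mice. Bone marrow-derived (BMD) macrophages were grown from marrow of wild-type FVB mice for 7 days in 30 ng/mL M-CSF. ER-Hoxb8 cells are myeloid progenitors held immature by an estrogen-regulated Hoxb8 protein, kept in beta-estradiol with 10 ng/mL GM-CSF and differentiated by moving them to M-CSF. The ER-Hoxb8 progenitors, day 4 cells and day 7 macrophages come from FVB Cas9 mice and carry 1 copy of Cas9. Each of the 6 groups named so far has 3 libraries. Microglia-like cells (MLCs) are wild-type marrow cells or wild-type ER-Hoxb8 cells that were injected into brains of Csf1r-/- mice, which lack microglia of their own, and sorted back out, with 6 libraries each. By library name, replicates 1 to 3 of the ER-Hoxb8 MLCs are GFPHox and replicates 4 to 6 are WTHox. Microglia from uninjected wild-type FVB mice gave 9 libraries, of which replicates 1 to 7 are named WT and replicates 8 and 9 YSWT. BMD macrophage replicates 1 and 2 are named Mac and replicate 3 wBM, and what these names stand for is not given. For the Adar1 groups, ER-Hoxb8 progenitors heterozygous for Cas9 received a guide against Adar1 (sgRNA 1 or sgRNA 2) or a nontargeting control guide (NTC). They were used as edited pools, not single clones. These groups hold 3 progenitor libraries for sgRNA 1, sgRNA 2 and NTC each, 3 macrophage libraries for sgRNA 1, 5 for sgRNA 2 and 3 for NTC. In a separate series, NTC and sgRNA 1 macrophages were grown for 7 days in 0, 0.0006, 0.016, 0.4 or 10 µM baricitinib, an inhibitor of the JAK kinases that relay interferon signals, with 3 or 4 libraries a dose. The doses are those of the sample titles; the treatment protocol gives 0.00064 and 0.16 µM for the doses titled 0.0006 and 0.016 µM, so their true size is uncertain.

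Scavenger receptors are surface and endosomal proteins of unrelated structure that bind modified lipoproteins, dying cells and microbes, and macrophages use them to clear such cargo. The lipids taken up feed nuclear receptors of the PPAR and LXR families, which control genes of lipid handling. Cd5l, also called AIM, is secreted by resident macrophages of several tissues, carries scavenger receptor cysteine-rich domains and is a known target gene of LXR.

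Values are TMM-normalized CPM (counts per 1 M counted reads, M for mega) on the log2 scale, as deposited by the authors. The table consists of 6 sets of libraries, each with its own lowest value, which stands for a count of 0, and levels are compared only within a set. The lowest value is -4.34 for the 12 libraries of progenitors, monocytes and day 4 cells, -3.62 for the 27 of macrophages in vitro and brain cells, -3.43 for 11 of sgRNA 1 and NTC, -3.56 for 8 of sgRNA 2 and -2.78 for the 33 with baricitinib. NTC macrophage replicate 2 has a lowest value of its own, -3.09, and entered no comparison; its levels were 7.42 for Msr1, 6.96 for Cd36, -2.59 for Marco, 11.25 for Cd68, 5.24 for Scarb1, 5.63 for Cd5l and 5.86 for Adar. Depth, estimated from the steps between low values, ran from 33.2 to 52.4 M counts in the first of these sets, 9.8 to 35.7 M in the second, 22.4 to 34.2 M with sgRNA 1, 17.2 to 28.5 M with sgRNA 2 and 6.2 to 30.6 M with baricitinib. A level of 3 counts, at the depth that the lowest value of a set stands for under an assumed prior count, is called its floor; for sgRNA 1 that depth is 21.5 M, below each library of the set. The floors lie at -3.02, -2.29, -2.10, -2.24 and -1.46 in the same order. Floors cover counting error only. The labels number the libraries of a group without saying which animals or cultures they came from, so p-values measure the spread between these libraries.

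Some libraries stood apart from their groups. ER-Hoxb8 progenitor replicate 2 was closest to day 4 replicate 2 (r = 0.984 across 12056 genes) and less close to its own group (0.845 and 0.890). Adar1 KO replicate 2 at 0.4 µM was closest to Adar1 KO replicate 2 at 0.016 µM (r = 0.947 across 11152 genes) and correlated at 0.888 and 0.891 with its own group, whose other libraries correlated at 0.978. Microglia replicate 8 had a mean correlation of 0.750 with other microglia. Its summed markers were at 440 CPM for 4 astrocyte genes (Slc1a2 most abundant, Aqp4 at the floor) and 126 CPM for 4 neuron genes (Stmn2 most abundant). The other 8 microglia libraries reached at most 12.7 and 8.67 CPM. Where a call of the 6 genes changed without 1 of these 3 libraries, the value without it is given.

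Adar RNA was read in every library of the edited series. In macrophages it was 6.96, 7.15 and 7.01 with sgRNA 1 against 5.73 and 5.67 in NTC replicates 1 and 3, and 7.02, 7.00, 7.02, 7.03 and 6.99 with sgRNA 2. In progenitors it was 4.36, 4.23 and 4.24 with sgRNA 1, 4.20, 3.42 and 4.28 in NTC, and 4.35, 4.56 and 4.36 with sgRNA 2. Adar RNA was thus higher, not lower, in sgRNA 1 macrophages than in NTC, and sgRNA 2 has no NTC in its set. Cas9 leaves short insertions and deletions that need not lower RNA, so these levels do not check the edit, and Adar1 KO stands below for the label of the libraries.

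Without baricitinib, Adar was at 7.42, 6.52 and 6.37 in Adar1 KO and at 5.12, 4.94 and 4.69 in NTC. At 0.0006 µM it was 5.90, 5.94 and 6.21 against 4.66, 5.04 and 4.81, and at 0.016 µM 6.25, 5.90 and 6.37 against 4.31, 4.58, 4.40 and 4.34. At 0.4 µM the Adar1 KO libraries were at 4.12, 7.38 and 4.21 and NTC at 4.50, 4.22, 4.29 and 3.92. At 10 µM Adar was 1.55, 2.15, 2.91 and 2.03 in Adar1 KO against 3.70, 3.64 and 3.22 in NTC. Adar1 KO was above NTC at the lowest 3 doses and below it at 10 µM. At 0.4 µM it was within the range of NTC except for replicate 2, which alone was high.

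Of the 6 genes, Cd5l is the one whose level in sgRNA 1 macrophages lay farthest from control. Its promoter is shown with that of Cd36, since both genes changed over the doses of an inhibitor of interferon signaling. The promoter table used, from RefSeq (GRCm38.p6), held an entry for 4 of the 6 genes, Cd36, Marco, Cd68 and Cd5l, and none was found in it for Msr1 and Scarb1. The windows of 300 bases below run from 250 before to 50 after the start of the gene, at chr3:87357631-87357930 on the + strand for Cd5l and chr5:17835847-17836146 on the - strand for Cd36, and capitals mark the motifs found.
Cd5l: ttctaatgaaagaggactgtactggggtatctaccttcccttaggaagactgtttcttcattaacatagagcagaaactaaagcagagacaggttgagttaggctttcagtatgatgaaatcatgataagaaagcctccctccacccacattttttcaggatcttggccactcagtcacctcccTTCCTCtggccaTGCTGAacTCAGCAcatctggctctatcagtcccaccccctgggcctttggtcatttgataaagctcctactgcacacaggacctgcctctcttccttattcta
Cd36: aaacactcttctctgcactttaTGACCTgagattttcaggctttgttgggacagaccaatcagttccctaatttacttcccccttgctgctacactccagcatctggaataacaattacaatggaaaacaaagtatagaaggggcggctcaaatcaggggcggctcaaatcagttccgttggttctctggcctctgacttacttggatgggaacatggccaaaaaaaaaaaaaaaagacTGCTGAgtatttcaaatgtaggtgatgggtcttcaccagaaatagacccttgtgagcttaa
A script searched both strands for an ETS core (GAGGAA), a nuclear receptor half-site (AGGTCA), a MAF recognition half-site (TGCTGA), an interferon-stimulated element (GAAANNGAAA) and a STAT palindrome (TTCNNNGAA). The Cd5l window holds 1 ETS core and 2 MAF half-sites, the Cd36 window holds 1 nuclear receptor half-site and 1 MAF half-site, and neither window holds the other motifs. None of these matches overlaps another. Of 32851 promoters of this length, 28.3% hold the ETS core, 19.5% the MAF half-site, 16.3% the nuclear receptor half-site, 8.3% the STAT palindrome and 3.44% the interferon-stimulated element. A match describes the letters of the window and does not show that a factor binds there.

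With sgRNA 1, Msr1, a class A scavenger receptor for modified lipoproteins and bacteria, was at 10.05, 9.83 and 9.65 in macrophages, and at 7.42 and 7.61 in NTC replicates 1 and 3. Cd5l was at -0.15, 0.09 and 0.04 in the same Adar1 KO macrophages and at 5.86 and 5.68 in NTC. No library of one group reached the range of the other for either gene. The difference was 2.33 ± 0.15 (SE) for Msr1 and -5.78 ± 0.11 for Cd5l, and both are the values on which the set was chosen. In bulk samples, fewer cells that express a gene and less RNA per cell cannot be told apart.

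The class B receptors took other positions. Cd36, which takes up oxidised lipoproteins and long-chain fatty acids, was at 5.45, 7.55 and 7.61 with sgRNA 1 and at 6.55 and 7.18 in NTC. Scarb1, the receptor for high-density lipoprotein, was at 4.81, 5.60 and 5.80 against 4.55 and 5.94. Cd68, a glycoprotein of lysosomes that is used as a macrophage marker, was at 11.11, 11.36 and 11.24 against 11.40 and 11.27. For each of these 3 genes the groups overlapped. Marco, a class A receptor for bacteria, was near the floor, at -1.25 in replicate 2, -3.01 in replicate 3 and between them in replicate 1, against -2.11 and -2.70. Of the 4 genes that passed the filter on low values (CPM above 1 in at least 3 libraries), which Marco and Cd5l failed, 1 had groups without overlap (Msr1), against 52.6% of all 11008 genes that passed. The choice of genes used this contrast, so nothing is read from that count.

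The sgRNA 2 macrophages form a set without NTC libraries, so their levels stand alone. Msr1 was at 9.27, 9.24, 9.37, 9.30 and 9.33, Cd36 at 8.19, 8.09, 8.13, 8.30 and 8.29, and Cd5l at -3.56, -2.81, -3.01, -2.97 and -2.93. Each Cd5l value lay under the floor of that set. Cd68 was at 11.48, 11.38, 11.41, 11.40 and 11.45, and Scarb1 at 6.27, 6.73, 6.48, 6.60 and 6.43. Marco was at the lowest value in 3 of the 5 libraries, with -1.21 in replicate 2 and -3.01 in replicate 3.

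**Figure D1:**
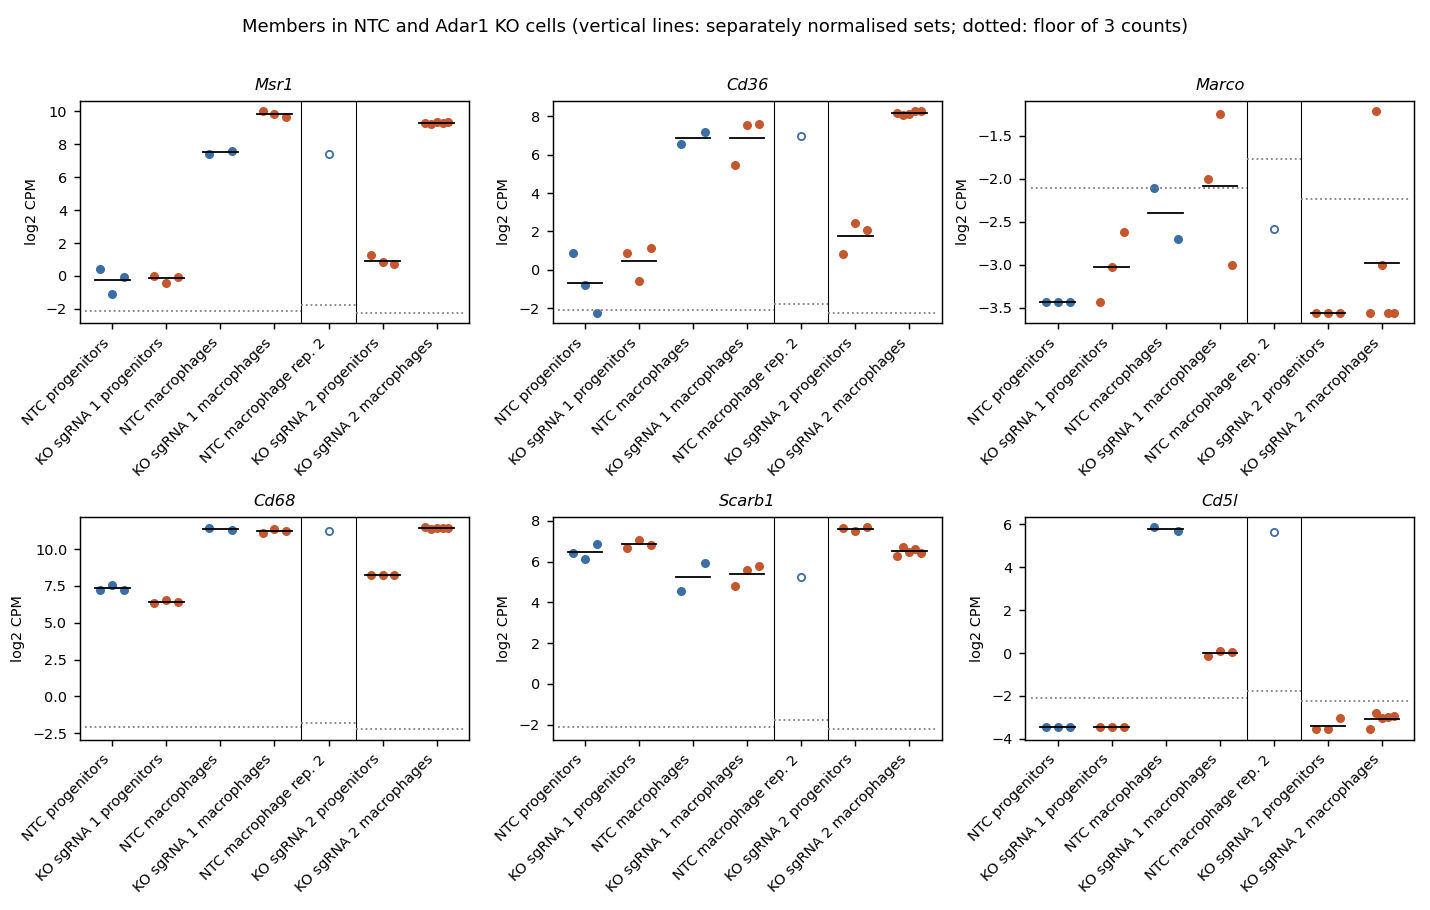
Levels of the 6 genes (log2 CPM, y axis) in progenitors and macrophages of the sgRNA 1, NTC and sgRNA 2 sets; points are libraries, lines are group means and the dotted line is the floor of 3 counts. Cd5l lies between 5.68 and 5.86 in NTC macrophages, near 0 with sgRNA 1 and under the floor with sgRNA 2, while Msr1 is high in all macrophage groups.

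Marker genes moved along with this contrast. The 6 border-macrophage markers, led by F13a1, summed to 250 to 368 CPM in sgRNA 1 macrophages against 1890 and 2350 CPM in NTC, and the 2 proliferation markers, led by Top2a, to 88.6 to 91.5 CPM against 15.7 and 17.8 CPM. Macrophage markers summed to 4570 to 5260 CPM against 7550 and 8610 CPM, and neutrophil markers, given below with the progenitors, were higher in sgRNA 1 macrophages. The part of these markers in the difference of Msr1 and Cd5l was not tested. The liver and spleen macrophage markers Clec4f, Timd4 and Vsig4 were at or near 0 in these macrophages, at most 0.197 CPM in sum. Beside the 52.6% of all genes without overlap, all 8 interferon-stimulated genes were higher in sgRNA 1 macrophages than in NTC without overlap, with a median difference of 5.69 against 0.05 over all genes. Of the 9 tested genes of lipid uptake and storage, 1 was higher and 2 lower without overlap (median 0.01), of 8 other scavenger receptors 1 was higher and 5 lower (median -0.80), and of 9 transcription factors 0 were higher and 6 lower (median -0.63).

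Control cells were compared before and after differentiation. In NTC progenitors Msr1 was at 0.42, -1.10 and -0.09, Cd36 at 0.88, -0.77 and -2.24, and Cd68 at 7.21, 7.58 and 7.20. Each was below both NTC macrophage libraries. Scarb1 went the other way, at 6.44, 6.14 and 6.87 in progenitors, above both macrophage libraries. Msr1 differed by 7.77 ± 0.35, which is given as a description, since NTC macrophages are the controls of the contrast that chose it and it passed the filter mostly through macrophages. All 3 other genes passed (adjusted p below 0.05), where 71.8% of 11008 genes did. By limma with Benjamini-Hochberg adjustment, Cd36 rose by 7.57 ± 0.87 (adjusted p = 1.0e-05, 2 of 2 macrophage libraries) and Cd68 by 4.00 ± 0.13 (4.9e-10, 2 of 2). Scarb1 fell by 1.24 ± 0.38 (adjusted p = 0.013, 2 of 2), and without NTC macrophage replicate 1 its difference was -0.54 (adjusted p = 0.20), and with no filter the call was lost (0.081).

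Cd5l could not be tested in that fit, because too few libraries passed the filter. It was at the lowest value, -3.43, in every NTC and sgRNA 1 progenitor library, so NTC macrophages were at least 7.87 above NTC progenitors on the log2 scale, or at least 235-fold higher. In sgRNA 1 macrophages it was at least 4.27-fold higher than in their progenitors. Between sgRNA 2 macrophages and progenitors no fold is given, as both groups were under the floor, with -3.56, -3.56 and -3.03 in the progenitors. Marco was at the lowest value in all NTC and sgRNA 2 progenitors and at -3.43, -3.03 and -2.62 in sgRNA 1 progenitors.

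The same changes were measured in edited cells. In sgRNA 1 progenitors Msr1 was at 0.01, -0.42 and -0.04, Cd36 at 0.88, -0.60 and 1.13, Cd68 at 6.33, 6.54 and 6.41, and Scarb1 at 6.67, 7.04 and 6.81. In sgRNA 2 progenitors they were at 1.27, 0.83 and 0.71, at 0.81, 2.43 and 2.10, at 8.22, 8.26 and 8.23, and at 7.63, 7.51 and 7.68. Macrophages and progenitors did not overlap for any of these genes with either guide. All 3 genes tested passed with sgRNA 1, against 71.3% of all genes, and with sgRNA 2, against 81.3%. Cd36 rose by 6.40 ± 0.78 (limma, adjusted p = 1.6e-05, 3 of 3) with sgRNA 1 and by 6.42 ± 0.29 (8.7e-09, 5 of 5) with sgRNA 2. Cd68 rose by 4.81 ± 0.12 (6.5e-11, 3 of 3) and 3.18 ± 0.03 (2.9e-13, 5 of 5). Scarb1 fell by 1.44 ± 0.34 (0.0027, 3 of 3) and by 1.11 ± 0.09 (1.3e-06, 5 of 5). Msr1, described only because Adar1 KO macrophages are involved, differed by 9.99 and 8.36.

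Marker sums differed widely between progenitors and macrophages. The 5 neutrophil markers, led by Mpo in progenitors and S100a8 in macrophages, were at 16900 to 25200 CPM in NTC progenitors and at 10.6 and 15.1 CPM in NTC macrophages, with S100a9, Elane and Ngp at the floor in both. With sgRNA 1 they were at 12100 to 18200 CPM and 65.9 to 81.3 CPM, and with sgRNA 2 at 2310 to 2840 CPM and 21.2 to 27 CPM. Proliferation markers, led by Top2a, were at 497 to 630, 516 to 587 and 493 to 550 CPM in progenitors of NTC, sgRNA 1 and sgRNA 2, and at 145 to 180 CPM in sgRNA 2 macrophages. The 5 macrophage markers were at 91.9 to 177, 127 to 147 and 57 to 63.1 CPM in the progenitors, and at 7550 and 8610, 4570 to 5260 and 3580 to 3880 CPM in the macrophages. Sums on some other marker lists, not reported here, also differed between progenitors and macrophages. The part of all these markers in the changes was not tested.

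Before differentiation, Cd68 was the one gene of the set called between sgRNA 1 and NTC progenitors, and sgRNA 2 progenitors have no control in their set. It fell by 0.91 ± 0.12 in sgRNA 1 progenitors relative to NTC (limma, Benjamini-Hochberg adjusted p = 0.0047, lower in 3 of 3), and 1 of 3 genes tested passed against 0.936% of all genes. Replicate numbers paired these groups (r of residuals from 0.16 to 0.35), the test is unpaired, and with a replicate block Cd68 kept its call. The border-macrophage markers, led by F13a1 and with Lyve1 at the floor, were at 152 to 244 CPM in sgRNA 1 and 273 to 375 CPM in NTC progenitors, and their part in the fall of Cd68 was not tested. Scarb1 differed by 0.36 ± 0.34 (adjusted p = 0.99) and Cd36 by 1.18 ± 0.78 (0.94), both with overlap. Msr1 differed by 0.11 ± 0.31 with overlap. This is a description, since Msr1 passed the filter mostly through macrophages, where it is high. Limma called 0 genes on each of the 4 lists here. At an unadjusted p below 0.05 there was 1 of 8 interferon-stimulated genes (median 0.04), 1 of 8 other scavenger receptors (median -0.02), 1 of 9 lipid genes (median 0.18) and 0 of 9 transcription factors (median 0.04), against a median of -0.01 over all genes. At that unadjusted p 725 of 11008 genes passed.

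The counts on the lists stand beside a share of 71.8% of all genes called between NTC macrophages and progenitors. In NTC macrophages 6 of 8 other scavenger receptors were higher than in progenitors and 1 lower (median 2.80 against -0.08 over all genes). Colec12, a scavenger receptor of the collectin family, rose by 12.31 ± 0.26 (limma, adjusted p = 2.5e-11) and Lrp1, an endocytic receptor for many ligands, by 4.96 ± 0.26 (1.6e-08), whereas Olr1, a receptor for oxidised lipoprotein, fell by 4.28 ± 0.46 (5.8e-06). Of 9 lipid genes 5 rose and 1 fell (median 0.58), led by the lipases Lpl (5.37 ± 0.35) and Lipa (5.12 ± 0.19). Of 9 transcription factors 7 rose and 1 fell (median 1.45), with Maf at 8.39 ± 0.36 and Pparg at -1.63 ± 0.26. Of the 8 interferon-stimulated genes 6 rose and 1 fell (median 2.68), with Ifit3 at 6.67 ± 0.41, Irf7 at 4.52 ± 0.29 and Cxcl10 at -2.21 ± 0.39.

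In edited cells, where 71.3% of all genes were called with sgRNA 1 and 81.3% with sgRNA 2, the 8 interferon-stimulated genes all rose with differentiation, by a median of 8.64 with sgRNA 1 and 8.07 with sgRNA 2, where the medians over all genes were -0.06 and -0.03. Ifit3 and Ifit1 led both, at 12.36 ± 0.37 and 11.28 ± 0.38 with sgRNA 1 and at 9.56 ± 0.10 and 9.39 ± 0.09 with sgRNA 2. Other scavenger receptors rose for 6 and fell for 1 of 8 with sgRNA 1 (median 1.37; Colec12 8.84 ± 0.24, Lrp1 3.74 ± 0.24, Olr1 -4.92 ± 0.41), and for 5 and 1 of 8 with sgRNA 2 (median 0.70; Colec12 8.73 ± 0.55, Lrp1 3.70 ± 0.11, Cd163 -1.57 ± 0.21). Lipid genes rose for 4 and fell for 3 of 9 with sgRNA 1 (median -0.12; Lipa 5.56 ± 0.17, Lpl 5.13 ± 0.32, Fabp5 -0.76 ± 0.24). With sgRNA 2 they rose for 5 and fell for 4 of 9 (median 0.27; Lipa 5.35 ± 0.05, Lpl 4.81 ± 0.06, Fabp5 -2.70 ± 0.09, Fabp4 -2.17 ± 0.09). Of 9 transcription factors 6 rose and 1 fell with sgRNA 1 (median 0.77; Maf 6.40 ± 0.32, Pparg -1.91 ± 0.23), and 8 rose and 1 fell with sgRNA 2 (median 1.54; Maf 1.93 ± 0.19, Pparg -0.45 ± 0.10). Whether the guides differed from NTC in these changes was not tested.

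The baricitinib series holds Adar1 KO and NTC macrophages at 5 doses, which share their 0 µM libraries between comparisons. Msr1 was high throughout. In NTC it was at 9.11, 9.09 and 9.21 without drug, at 9.01, 8.86 and 8.99 with 0.0006 µM and at 9.04, 8.93, 8.87 and 8.91 with 0.016 µM. At 0.4 µM it was 9.02, 9.00, 9.01 and 9.25, and at 10 µM 9.37, 9.18 and 9.50. In Adar1 KO it was at 8.87, 9.27 and 9.47 without drug, 9.42, 9.50 and 9.33 at 0.0006 µM and 9.68, 9.81 and 9.52 at 0.016 µM.

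At 0.4 µM Msr1 was 9.38, 10.00 and 9.49 in Adar1 KO, and at 10 µM 9.92, 9.87, 9.46 and 9.80. Adar1 KO and NTC overlapped without drug and at 10 µM, and did not overlap at the 3 doses between. The difference was 0.07 ± 0.18 at 0 µM, 0.46 ± 0.07, 0.74 ± 0.09 and 0.56 ± 0.20 at the next 3 doses and 0.41 at 10 µM; at 0.4 µM it was 0.37 ± 0.08 without replicate 2, which stood apart, and 0.28 with quantile normalization. The higher Msr1 on which the set was chosen, present with sgRNA 1 in the other series, was absent from the 0 µM libraries here. In the order of group means each group overlapped the next, from 9.76 in Adar1 KO at 10 µM to 8.93 in NTC at 0.016 µM.

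Cd5l lay far lower in Adar1 KO than in NTC at every dose. In NTC it was at 3.09, 3.71 and 3.69 without drug, 3.50, 3.60 and 3.76 at 0.0006 µM and 3.82, 4.04, 4.14 and 4.13 at 0.016 µM. At 0.4 µM it was 4.24, 4.02, 4.00 and 4.46, and at 10 µM 1.56, 1.66 and 2.34. The NTC libraries at 10 µM were below all other NTC libraries. In Adar1 KO it was at -1.21, -2.78 and -2.21 without drug, -2.06, -2.78 and -2.78 at 0.0006 µM and at the lowest value, -2.78, in all 3 libraries at 0.016 µM. At 0.4 µM it was 1.03, 0.59 and 1.85, above the floor of -1.46 in each library, and at 10 µM -1.63, -2.38, -1.56 and -0.58. Adar1 KO did not overlap with NTC at the same dose, and its highest library, at 0.4 µM, was above the lowest NTC library at 10 µM.

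Adar1 KO was lower than NTC in Cd5l by at least 33.8-fold at 0.0006 µM and at least 44.9-fold at 0.016 µM, since its libraries were at or under the floor there. The difference was -5.56 ± 0.50 without drug, where 2 of 3 Adar1 KO libraries were under the floor, and -3.40 at 10 µM, where 3 of 4 were. The size of both rests on counts near 0, and with log2(CPM + 1) they were -3.45 and -1.88. At 0.4 µM, with all libraries above the floor, the difference was -3.02. Within Adar1 KO, the 3 libraries at 0.4 µM lay above those without drug by 3.22 ± 0.38 on average with no overlap, which is a description, since the 0 µM libraries belong to the contrast that chose the gene. The size of this value too rests on counts near 0, as 2 of 3 libraries without drug were under the floor. Replicate 2 at 0.4 µM, although it stood apart in other genes, had a Cd5l of 0.59, near its group, and without it the difference from NTC was -2.74.

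**Figure D2:**
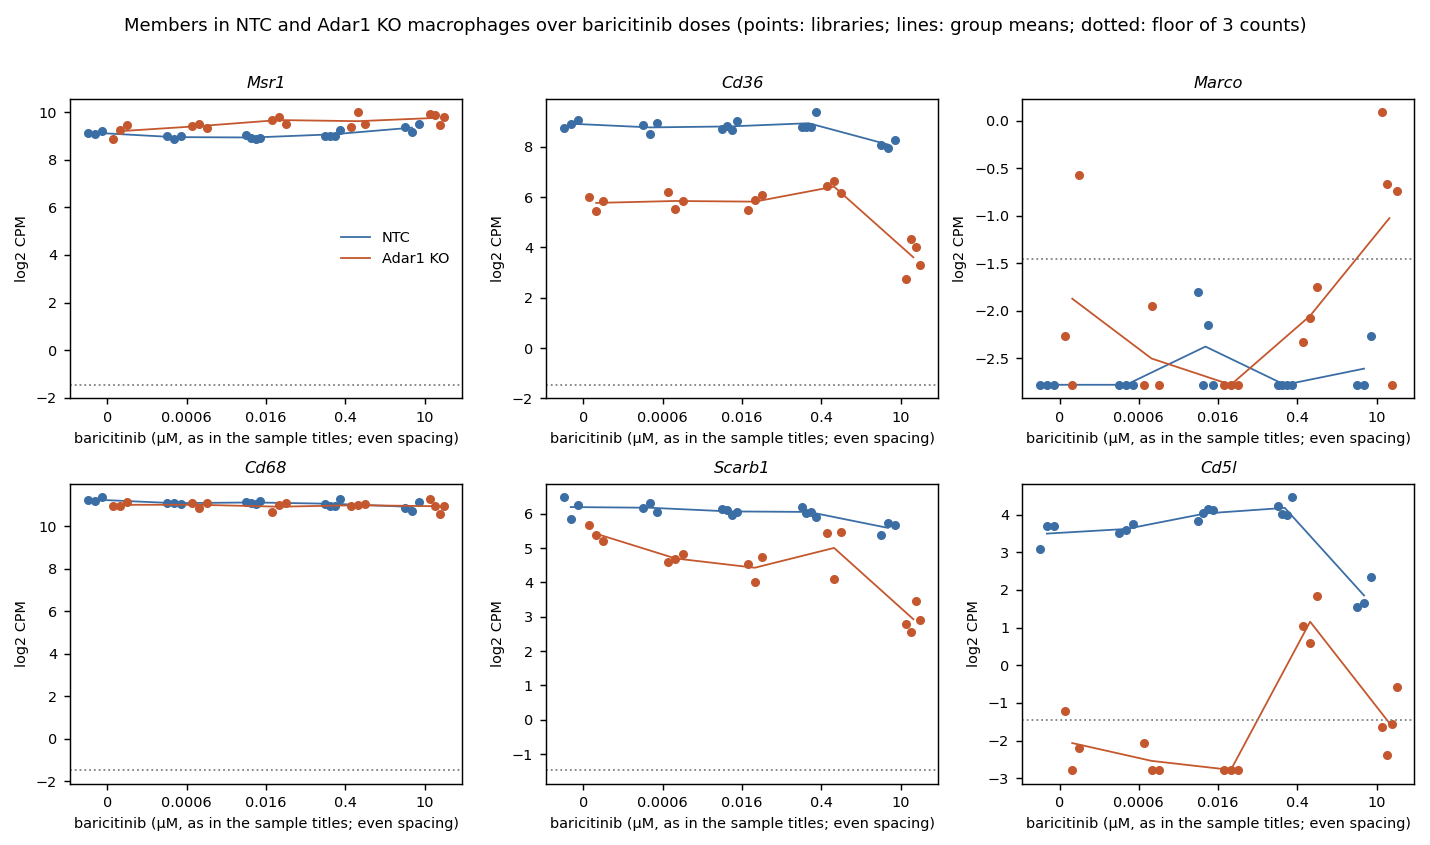
Levels of the 6 genes (log2 CPM, y axis) in NTC and Adar1 KO macrophages at 5 baricitinib doses (x axis, µM as in the titles, evenly spaced); points are libraries, lines join group means and the dotted line is the floor of 3 counts. Cd36, Scarb1 and Cd5l run lower in Adar1 KO, Cd5l is above its floor in all 3 Adar1 KO libraries at 0.4 µM, and Cd68 and Msr1 span narrow ranges.

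The class B receptors were lower in Adar1 KO than in NTC in this series at every dose. In the other series, sgRNA 1 and NTC macrophages overlapped for both genes, with differences of 0.01 ± 0.78 for Cd36 and 0.15 ± 0.76 for Scarb1. Their lower levels were thus absent there. Cd36 was at 5.99, 5.46 and 5.85 in Adar1 KO without drug against 8.76, 8.90 and 9.08 in NTC. At 0.0006 µM it was 6.19, 5.51 and 5.83 against 8.87, 8.49 and 8.94, and at 0.016 µM 5.47, 5.89 and 6.09 against 8.72, 8.82, 8.66 and 9.02. The groups lay apart at all 3 doses. At 0.4 µM Cd36 was 6.45, 6.63 and 6.16 against 8.78, 8.80, 8.78 and 9.37, and at 10 µM 2.75, 4.34, 4.02 and 3.31 against 8.05, 7.96 and 8.25. The 4 Adar1 KO libraries at 10 µM were the lowest of the series. The differences from NTC were -3.15 ± 0.18, -2.92, -2.98, -2.52 (-2.63 without replicate 2) and -4.48 from the lowest to the highest dose. In the order of means, NTC at 10 µM (8.09) lay apart from both the other NTC groups and all Adar1 KO groups, and Adar1 KO at 10 µM (3.61) lay apart below the rest.

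Scarb1 was at 5.68, 5.38 and 5.20 in Adar1 KO without drug against 6.48, 5.84 and 6.27 in NTC. At 0.0006 µM it was 4.59, 4.67 and 4.84 against 6.16, 6.31 and 6.06, and at 0.016 µM 4.55, 4.01 and 4.73 against 6.14, 6.12, 5.97 and 6.05. No group reached its counterpart. At 0.4 µM Scarb1 was 5.45, 4.10 and 5.47 against 6.21, 6.03, 6.06 and 5.92, and at 10 µM 2.78, 2.56, 3.47 and 2.91 against 5.38, 5.72 and 5.67. Again the groups did not overlap, and the low value at 0.4 µM was that of replicate 2. The differences from NTC were -0.77 ± 0.24, -1.48, -1.64, -1.05 and -2.66, and without that replicate the fourth was -0.60.

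Cd68 stayed between 10.59 and 11.35 in the whole series. Without drug it was at 10.92, 10.96 and 11.12 in Adar1 KO against 11.21, 11.17 and 11.35 in NTC, with no overlap and a difference of -0.25 ± 0.08 (-0.40 with quantile normalization). At 0.0006 µM it was 11.10, 10.83 and 11.07 against 11.09, 11.09 and 11.05, and at 0.016 µM 10.65, 11.01 and 11.07 against 11.15, 11.08, 11.05 and 11.16. At 0.4 µM it was 10.92, 10.97 and 11.05 against 11.06, 10.96, 10.92 and 11.25, and at 10 µM 11.26, 10.96, 10.59 and 10.92 against 10.85, 10.71 and 11.14. The groups overlapped at each of these 4 doses. With quantile normalization the differences moved from -0.08 to -0.32, from -0.20 to -0.46 and from -0.07 to -0.44 at 0.0006, 0.016 and 0.4 µM. Marco failed the filter and was at the lowest value in all NTC libraries at 0, 0.0006 and 0.4 µM and in all Adar1 KO libraries at 0.016 µM; its highest value was 0.09, in an Adar1 KO library at 10 µM. Of the 5 genes that passed the filter, 4 had groups without overlap at 0 µM, 4 at 0.0006 µM, 4 at 0.016 µM, 4 at 0.4 µM and 3 at 10 µM. Over all 11152 genes tested the share was 42.1%, 43.7%, 43.0%, 22.1% and 50.9% in that order. The choice of genes rests on such contrasts, so nothing is read from these counts.

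Shares of all genes without overlap as above stand beside the counts on the lists. Interferon-stimulated genes were higher in Adar1 KO than in NTC without overlap for 8 of 8 at 0, 0.0006 and 0.016 µM, with median differences of 5.01, 5.09 and 6.19, for 2 of 8 at 0.4 µM (median 4.19, or 1.04 without replicate 2), and for 2 of 8 with 1 lower at 10 µM (median 0.25). Lipid genes were higher for 2, 4, 3, 0 and 0 of 9 and lower for 2, 2, 3, 3 and 7 of 9 from the lowest to the highest dose. The other scavenger receptors were higher for 3, 4, 2, 1 and 4 of 9 and lower for 5, 5, 5, 3 and 5. For transcription factors the counts were 1, 3, 2, 2 and 2 of 9 higher and 2, 2, 1, 2 and 5 lower. Without replicate 2 at 0.4 µM, 5 lipid genes, 4 other scavenger receptors and 4 transcription factors were lower and 2 scavenger receptors higher. Groups with fewer libraries lie apart more easily, so the shares of all genes above do not apply to these counts, and nothing is read from them. Marker sums moved too. Border-macrophage markers were at 282 to 426 CPM in Adar1 KO against 897 to 1120 CPM in NTC without drug, at 908 to 2180 CPM in Adar1 KO at 0.4 µM and at 1650 to 2200 CPM at 10 µM, while Mrc1, on the same list, was lower at both doses than without drug. Proliferation markers were at 65.7 to 89.0 CPM in Adar1 KO without drug and 1170 to 1900 CPM at 10 µM, and the 5 macrophage markers at 4930 to 5000 CPM and 1990 to 2300 CPM. Their part in the levels of the 6 genes was not tested.

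Effects of the drug inside each genotype were tested against 0 µM. In NTC at 10 µM, Cd36 fell by 0.83 ± 0.27 (limma, Benjamini-Hochberg adjusted p = 0.037, lower in 3 of 3). This was 1 of 3 genes, against 13.8% of all genes tested. Cd36 lost its call without any 1 of the 6 libraries (adjusted p from 0.052 to 0.12), with no filter (0.071) and with runs of library names as a block (0.054). Scarb1 (-0.61 ± 0.26, adjusted p = 0.11) and Cd68 (-0.35 ± 0.13, 0.075) were lower in 3 of 3 but did not pass. Msr1 and Cd5l are described only, since the NTC libraries without drug are also controls of the contrast that chose them. Msr1 differed by 0.21 ± 0.14, and Cd5l by -1.64 ± 0.38, lower in 3 of 3. Markers moved with the dose in NTC. From 0 to 10 µM the 6 border-macrophage markers, led by F13a1 and with Lyve1 at the floor, went from 897 to 1120 CPM to 1990 to 2200 CPM, a rise carried by F13a1, since Mrc1 on the same list fell by 2.12 ± 0.27. Proliferation markers went from 262 to 384 CPM to 620 to 960 CPM and macrophage markers from 4660 to 4810 CPM to 3540 to 4070 CPM. Their part in the fall of Cd36 was not tested.

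In Adar1 KO at 10 µM, Cd36 fell by 2.16 ± 0.25 (adjusted p = 2.0e-08, lower in 4 of 4) and Scarb1 fell by 2.49 ± 0.24 (6.7e-10, 4 of 4) by limma, while Cd68 differed by -0.06 ± 0.12 (0.67). That is 2 of 3 genes tested, against 65.8% of all genes. Msr1, as a description, differed by 0.56 with overlap, and Cd5l was near its floor at both doses. In a test of the difference between genotypes, added after the data were seen, the change at 10 µM was more negative in Adar1 KO for Cd36, by -1.33 ± 0.37 (limma, adjusted p = 0.0052) and for Scarb1 by -1.88 ± 0.35 (0.00013), with 4 of 4 Adar1 KO and 3 of 3 NTC libraries below their 0 µM groups. For Cd68 it was 0.29 (adjusted p = 0.21). Thus 2 of 3 genes passed, against 39.5% of all genes.

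At 0.4 µM none of the set passed in either genotype. In NTC limma called 0 of 3 genes, where 0.00897% of all genes passed. At an unadjusted p below 0.05 there were also 0 of 3, where 598 of 11152 genes passed. Cd5l, as a description, was higher in 4 of 4 libraries by 0.68 ± 0.36. In Adar1 KO limma called 0 of 3, against 26.6% of all genes. At an unadjusted p below 0.05, where 4124 of 11152 genes passed, there was 1 of the 3. That gene was Cd36, higher in 3 of 3 by 0.65 ± 0.27 (adjusted p = 0.073), and by 0.54 without replicate 2 (adjusted p = 0.17). Scarb1 differed by -0.42 ± 0.26 (0.24), and by 0.04 without replicate 2. The change at 0.4 µM was not different between genotypes at the threshold for any of the 3 genes (limma, 0 called; adjusted p = 0.35 for Cd36, 0.64 for Cd68 and 0.73 for Scarb1), against 4.76% of all genes, with 2196 genes at an unadjusted p below 0.05. Without replicate 2 it had 1521 of 11128 genes in place of 531 and again 0 of the 3 (adjusted p = 0.41, 0.58 and 0.74 in that order).

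The lists at 10 µM are read beside a share of 13.8% of all genes called in NTC and 65.8% in Adar1 KO. Of the genes of lipid uptake and storage in NTC 0 rose and 7 of 9 fell, by a median of -0.68 against 0.00 over all genes, with the fatty acid binding proteins Fabp4 at -3.05 ± 0.42 (limma, adjusted p = 1.8e-05) and Fabp5 at -2.12 ± 0.39 (0.00065). In Adar1 KO 9 of 9 fell (median -1.57 against 0.05), with Fabp5 at -4.57 ± 0.36 (2.0e-11) and Fabp4 at -3.71 ± 0.40 (4.8e-09). Nr1h3, which encodes LXR alpha, fell by 2.02 ± 0.32 in NTC and by 3.21 ± 0.30 in Adar1 KO. Maf, a transcription factor of macrophages, rose by 1.06 ± 0.24 in NTC and by 2.38 ± 0.22 in Adar1 KO. In all, 2 of 9 transcription factors rose and 2 fell in NTC (Rxra -0.65 ± 0.17; median -0.14), and 3 rose and 5 fell in Adar1 KO (Nr1h2 -2.36 ± 0.19; median -0.90).

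Other scavenger receptors at 10 µM fell for 2 of 9 in NTC (Mrc1, the mannose receptor, -2.12 ± 0.27; Clec7a -0.95 ± 0.25; median -0.16). In Adar1 KO 3 rose and 3 fell (Cd163 2.44 ± 0.44, Stab1 1.47 ± 0.15, Clec7a -1.07 ± 0.24, Mrc1 -0.80 ± 0.25; median -0.14). Interferon-stimulated genes fell for 7 of 8 in Adar1 KO (median -6.93, with Ifit3 at -9.71 ± 1.36 and Irf7 at -9.47 ± 1.08). In NTC limma called 0 of 8 (median -1.70), with 2 at an unadjusted p below 0.05, where 3169 of 11152 genes passed. At 0.4 µM limma called 0 on all 4 lists in NTC, and 0.00897% of all genes, with 2 other scavenger receptors, 4 lipid genes, 1 transcription factor and 1 interferon-stimulated gene at an unadjusted p below 0.05 (medians -0.10, -0.21, -0.03 and -1.38). At that unadjusted p 598 of 11152 genes passed.

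In Adar1 KO at 0.4 µM, where 26.6% of all genes were called, 4 of 9 other scavenger receptors rose and 1 fell (Cd163 1.68 ± 0.47, Colec12 1.04 ± 0.20, Mrc1 -2.15 ± 0.27; median 0.56 against 0.03 over all genes). Of 9 lipid genes 1 rose and 3 fell (Lpl 1.03 ± 0.16, Fabp5 -3.15 ± 0.39, Fabp4 -1.77 ± 0.42; median -0.29), of 9 transcription factors 1 rose and 3 fell (Nr1h3 -1.21 ± 0.32, Rxra -0.99 ± 0.17; median -0.25), and of 8 interferon-stimulated genes 4 fell (Rsad2 -4.54 ± 1.44, Irf7 -4.11 ± 1.16; median -2.96). Without replicate 2, lipid genes fell for 7 of 9 and interferon-stimulated genes for 8 of 8, and 3655 of 11128 genes passed in place of 2963.

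In the brain, Msr1 separated donor-derived cells from microglia. It was between 7.67 and 8.46 in BMD MLCs (median 7.92), between 8.25 and 9.32 in ER-Hoxb8 MLCs (median 8.40) and between 1.20 and 5.31 in microglia (median 2.27), where the highest value was that of replicate 8. No MLC library came down to the microglia. Msr1 was higher than in microglia by 5.56 ± 0.40 in BMD MLCs (limma, Benjamini-Hochberg adjusted p = 4.2e-11, 6 of 6) and by 6.15 ± 0.40 in ER-Hoxb8 MLCs (3.5e-12, 6 of 6), or by 5.92 and 6.51 without microglia replicate 8 and by 5.79 and 6.39 without both YSWT libraries. These brain contrasts use no edited cells. Macrophages in vitro had 9.77, 8.48 and 9.72 (BMD) and 8.49, 8.68 and 7.38 (ER-Hoxb8). Against these, BMD MLCs differed by -1.32 ± 0.54 (adjusted p = 0.062, lower in 6 of 6) and ER-Hoxb8 MLCs by 0.41 ± 0.54 (0.57).

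Cd36 was also higher in MLCs than in microglia, with a wider spread. It ran from 3.34 to 5.69 in BMD MLCs (median 4.84), from 4.79 to 9.60 in ER-Hoxb8 MLCs (median 8.46) and from -3.62 to 2.79 in microglia (median 2.29), with the lowest value in replicate 8. BMD MLCs were above microglia by 3.09 ± 0.86 (limma, adjusted p = 0.010, 6 of 6) and ER-Hoxb8 MLCs by 6.31 ± 0.86 (1.9e-06, 6 of 6), or by 2.46 and 5.67 without microglia replicate 8, and both calls stayed without the YSWT libraries (2.29 for BMD MLCs). ER-Hoxb8 MLCs were above BMD MLCs by 3.21 ± 0.95 (adjusted p = 0.021, 5 of 6 above all), with the exception of replicate 6. That call was lost without BMD MLC replicate 1 (2.97, adjusted p = 0.052) or ER-Hoxb8 MLC replicate 3 (2.85, 0.057), and with only the 3 WTHox libraries (2.14, 0.22).

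Cd68 and Scarb1 did not separate MLCs from microglia. Cd68 was at 10.29 to 11.02 in BMD MLCs (median 10.63), at 9.57 to 10.66 in ER-Hoxb8 MLCs (median 10.07) and at 10.16 to 10.98 in microglia (median 10.35). Scarb1 was at 2.75 to 4.81, -0.38 to 4.92 and 2.54 to 6.51 (medians 3.96, 3.63 and 4.33). For both genes the 3 groups overlapped. Against microglia Cd68 differed by 0.12 ± 0.21 in BMD MLCs (limma, adjusted p = 0.77, above all in 1 of 6) and by -0.48 ± 0.21 in ER-Hoxb8 MLCs (0.083, below all in 3 of 6), and Scarb1 by -0.41 ± 0.67 (0.74, 0 of 6) and -1.43 ± 0.67 (0.10, 2 of 6). Without microglia replicate 8 these were 0.07, -0.53, -0.64 and -1.66, the last with an adjusted p of 0.046. Of 4 genes tested 2 passed in each comparison with microglia, against a share of all genes of 20.5% with BMD MLCs and 33.9% with ER-Hoxb8 MLCs, and 1 of 4 between the MLC groups, against 15.2%.

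Marco and Cd5l were close to the floor in the brain and failed the filter. Marco was at the lowest value in all BMD MLCs, in 5 of 6 ER-Hoxb8 MLCs (replicate 3 at -1.65) and in 7 of 9 microglia, with 4.15 in replicate 8 and -0.47 in replicate 9, the YSWT libraries. Cd5l was at the lowest value in all ER-Hoxb8 MLCs and 3 of 6 BMD MLCs, with -1.13, -3.06 and 0.76 in the others, and between -3.62 and -1.42 in microglia. In culture Cd5l was at 3.43, 3.07 and 2.77 in BMD macrophages and -0.88, 0.09 and 0.00 in ER-Hoxb8 macrophages. ER-Hoxb8 macrophages were at least 4.09-fold above ER-Hoxb8 MLCs.

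**Figure D3:**
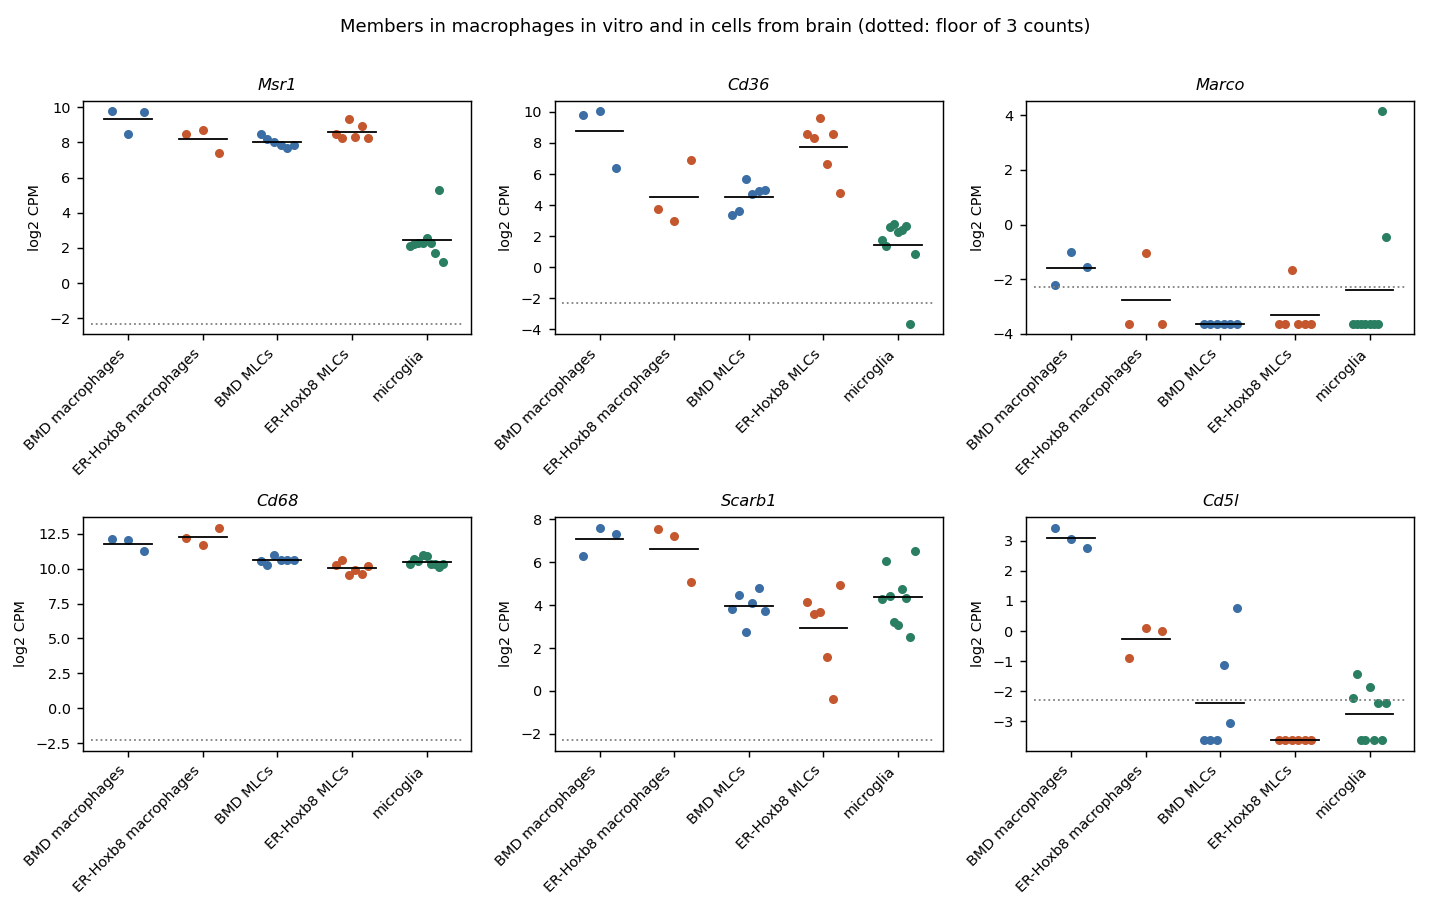
Levels of the 6 genes (log2 CPM, y axis) in BMD and ER-Hoxb8 macrophages in vitro, in microglia-like cells and in microglia; points are libraries, lines are group means and the dotted line is the floor of 3 counts. Msr1 is between 7.38 and 9.77 in all groups but microglia, and Cd36 of ER-Hoxb8 MLCs spreads from 4.79 to 9.60.

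Markers of other cells were measured in the sorted brain cells. The 5 neutrophil markers, led by Ngp in most of these libraries, summed to 3620 to 26800 CPM in BMD MLCs, 200 to 34600 CPM in ER-Hoxb8 MLCs and 345 to 4880 CPM in microglia. The 6 border-macrophage markers, led by Mrc1 in most of these libraries, were at 1920 to 3560 CPM in BMD MLCs, 273 to 1260 CPM in ER-Hoxb8 MLCs and 18.9 to 184 CPM in microglia. Microglia markers were at 5030 to 16700 CPM in BMD MLCs, 827 to 9620 CPM in ER-Hoxb8 MLCs and 45300 to 74000 CPM in microglia. The part of these markers, and of sums not reported here, in the levels of Msr1 and Cd36 was not tested.

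Macrophages in culture and MLCs differed in the class B receptors and Cd68. The ER-Hoxb8 macrophages carry Cas9 and the ER-Hoxb8 MLCs are wild-type GFPHox or WTHox cells, so place and cell line cannot be told apart in the ER-Hoxb8 change or in its difference from the BMD change. Cd36 was at 9.78, 10.05 and, in the wBM library, 6.41 in BMD macrophages and at 3.77, 2.97 and 6.90 in ER-Hoxb8 macrophages. It fell by 4.20 ± 1.16 from BMD macrophages to BMD MLCs (limma, Benjamini-Hochberg adjusted p = 0.0077, lower in 6 of 6) and rose by 3.22 ± 1.16 from ER-Hoxb8 macrophages to ER-Hoxb8 MLCs (0.033, 4 of 6 above all). The fall lost its call without BMD macrophage replicate 1 (-3.68, adjusted p = 0.052) or 2 (-3.55, 0.053). The rise lost it without ER-Hoxb8 macrophage replicate 1 (2.83, 0.13) or 2 (2.43, 0.18), and without ER-Hoxb8 MLC replicate 1 (0.051), 2 (0.053), 3 (0.062) or 5 (0.057), with only the 3 WTHox libraries (2.14, 0.22) and with no filter (0.060). The difference between these changes, tested after the data were seen, was 7.41 ± 1.64 (limma, adjusted p = 0.0093), with 6 of 6 BMD MLCs below and 4 of 6 ER-Hoxb8 MLCs above their macrophages. It was 1 of 4 genes, against 3.28% of all genes with a median of -0.20, and passed without any 1 of the 18 libraries. Msr1 (1.73, adjusted p = 0.25), Cd68 (-1.06, 0.17) and Scarb1 (-0.57, 0.90) did not pass.

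Scarb1 was at 6.29, 7.61 and 7.31 in BMD macrophages and 7.55, 7.22 and 5.08 in ER-Hoxb8 macrophages, above all MLCs of their kind. Cd68 was at 12.12, 12.03 and 11.27 and at 12.18, 11.68 and 12.94, likewise above. Scarb1 fell by 3.12 ± 0.90 in BMD MLCs (limma, adjusted p = 0.010, 6 of 6) and by 3.69 ± 0.90 in ER-Hoxb8 MLCs (0.0027, 6 of 6). Cd68 fell by 1.17 ± 0.28 (0.0030, 6 of 6) and by 2.23 ± 0.28 (1.5e-06, 6 of 6). With Cd36, 3 of 4 genes passed on each side, against 30.6% of all genes for BMD and 34.8% for ER-Hoxb8 cells. Marker sums differed between culture and brain as well. The neutrophil markers given above for MLCs were at 2.77 to 35.3 CPM in BMD macrophages and 26.9 to 66.5 CPM in ER-Hoxb8 macrophages. Proliferation markers were at 35.4 to 520 CPM and 27.6 to 111 CPM in BMD cells and at 39.1 to 331 CPM and 102 to 638 CPM in ER-Hoxb8 cells. Their part in these differences was not tested.

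Of all genes 30.6% were called between BMD macrophages and MLCs and 34.8% between those of ER-Hoxb8 cells, and the counts on the lists stand beside these shares. Among genes of lipid uptake and storage in BMD MLCs 8 of 9 fell and 0 rose relative to macrophages (median -3.95 against -0.01 over all genes), with Fabp4 at -7.83 ± 1.40 (limma, adjusted p = 0.00017), and in ER-Hoxb8 MLCs 7 of 9 (median -3.91 against -0.15), with Fabp4 at -9.17 ± 1.40 (1.9e-05) and Fabp5 at -7.45 ± 0.99 (3.0e-06). Pparg and Nr1h3 fell in both, by 3.71 ± 1.06 and 5.62 ± 1.40 in BMD cells and by 5.61 ± 1.06 and 3.77 ± 1.40 in ER-Hoxb8 cells. Counted over 9 transcription factors, 3 rose and 3 fell in BMD cells (Spi1 among those that rose; median 0.59) and 2 rose and 3 fell in ER-Hoxb8 cells (Maf 2.02 ± 0.70; median -0.02). Of 12 other scavenger receptors 2 rose and 4 fell in BMD cells (Olr1 4.29 ± 1.18, Scarb2 0.73 ± 0.26, Scarf1 -5.88 ± 1.18, Colec12 -5.73 ± 1.56; median 0.73), and 2 rose and 2 fell in ER-Hoxb8 cells (Cxcl16 3.92 ± 0.78, Scarb2 0.80 ± 0.26, Colec12 -4.59 ± 1.56, Lrp1 -1.21 ± 0.46; median 0.71). Interferon-stimulated genes rose for 3 of 8 in BMD cells (Ifit3 2.81 ± 0.74, Mx1 2.79 ± 0.76; median 1.62) and 8 of 8 in ER-Hoxb8 cells (Cxcl10 9.88 ± 0.77, Oasl1 8.82 ± 0.98; median 5.15).

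Relative to microglia, where 20.5% of all genes were called in BMD MLCs and 33.9% in ER-Hoxb8 MLCs, other scavenger receptors were higher for 8 and lower for 1 of 12 in BMD MLCs, with a median of 3.25 against 0.06 over all genes. Cd163, the receptor for hemoglobin complexes, was higher by 6.32 ± 0.94 (limma, adjusted p = 1.3e-05) and Mrc1 by 5.85 ± 0.91 (2.3e-05), with Scarb2 at -0.72 ± 0.20. In ER-Hoxb8 MLCs 6 were higher and 1 lower (median 1.49 against -0.10), with Cxcl16 at 4.65 ± 0.58, Cd44 at 4.28 ± 0.30 and Scarb2 at -1.11 ± 0.20. Lipid genes were higher for 3 of 9 (Plin2 1.71 ± 0.22, Soat1 1.17 ± 0.30; median 0.94) and 2 of 9 (Plin2 1.88 ± 0.22, Acsl1 1.00 ± 0.35; median 0.61). Transcription factors were higher for 2 of 9 in BMD MLCs (Cebpb 1.30 ± 0.37, Nfe2l2 0.75 ± 0.17; median 0.51), with 1 higher and 1 lower in ER-Hoxb8 MLCs (Cebpb 1.92 ± 0.37, Maf -1.41 ± 0.52; median -0.06). Interferon-stimulated genes were higher for 3 of 8 (Irf7 3.00 ± 0.67, Mx1 2.52 ± 0.57; median 1.43) and 8 of 8 (Cxcl10 8.36 ± 0.57, Oasl1 6.69 ± 0.73; median 5.76). Without microglia replicate 8, these counts were the same except for 2 lower scavenger receptors in ER-Hoxb8 MLCs. In that fit 2782 of 12471 genes passed with BMD MLCs and 5075 with ER-Hoxb8 MLCs.

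Between the MLC groups, where 15.2% of all genes were called, the interferon-stimulated genes were 8 of 8 higher in ER-Hoxb8 MLCs (median 4.31 against -0.22 over all genes; Cxcl10 8.26 ± 0.63, Oasl1 5.09 ± 0.80). Other scavenger receptors were higher for 1 and lower for 3 of 12 (Cd44 0.97 ± 0.33, Cd163 -5.76 ± 1.03, Mrc1 -3.35 ± 0.99; median -0.77) and lipid genes higher for 2 of 9 (Lpl 1.39 ± 0.44, Lipa 0.95 ± 0.33; median -0.11). Limma called 0 of 9 transcription factors (median -0.57), with 2 at an unadjusted p below 0.05, where 3623 of 12518 genes passed. Against that background Msr1 differed by 0.59 ± 0.44 (adjusted p = 0.39), Cd68 by -0.60 ± 0.23 (0.083) and Scarb1 by -1.02 ± 0.73 (0.38), all with overlap.

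In culture, the Cd5l levels of ER-Hoxb8 and BMD macrophages given above lay apart, with a difference of -3.35 ± 0.49 (lower in 3 of 3). This is a description, since Cd5l passed the filter only through the BMD macrophages, where it is high. Of the other 4 genes limma with Benjamini-Hochberg adjustment called 0, against 1.51% of 10764 genes. At an unadjusted p below 0.05 there were 2 of the 4, and 1327 of all genes. Cd36 differed by -4.20 ± 1.28 (adjusted p = 0.24), with BMD replicate 3 and ER-Hoxb8 replicate 3 overlapping, Scarb1 by -0.46 ± 0.68 (0.83) and Cd68 by 0.46 ± 0.43 (0.72). Msr1 had means of 8.18 in ER-Hoxb8 and 9.32 in BMD macrophages (adjusted p = 0.40). Marco was at -2.20, -1.01 and -1.56 in BMD macrophages and at the lowest value in 2 of 3 ER-Hoxb8 libraries. On the lists limma called 0 genes, with 6 of 10 other scavenger receptors, 0 of 9 lipid genes, 2 of 9 transcription factors and 1 of 5 interferon-stimulated genes at an unadjusted p below 0.05 (medians -1.23, 0.38, -0.02 and 0.34 against 0.02). These counts stand beside the 1327 of 10764 genes at that unadjusted p.

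In the set of progenitors, monocytes and day 4 cells, Msr1 and Cd68 varied most with stage. BM progenitors were at 1.65, 2.95 and 2.46, BM monocytes at 6.98, 6.96 and 6.93, ER-Hoxb8 progenitors at 1.26, 8.39 and 0.81 and day 4 cells at 8.52, 8.77 and 9.31. The 8.39 is that of ER-Hoxb8 progenitor replicate 2, the library closest to day 4 cells. Cd68 was at 5.62, 6.48 and 5.93, at 8.71, 9.03 and 9.11, at 10.49, 10.82 and 6.38, and at 12.09, 10.95 and 10.96 in the same order. Day 4 cells were above all other libraries of their set for both genes. Cd5l is described only in this set, since it passed the filter through the few libraries where it is high. In monocytes limma called 0 of 4 genes relative to BM progenitors, with 2 at an unadjusted p below 0.05, against 13.8% of all genes and 3657 unadjusted. Msr1 was higher by 4.61 ± 1.49 (adjusted p = 0.061, 3 of 3) and Cd68 by 2.94 ± 0.91 (0.053, 3 of 3).

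From ER-Hoxb8 progenitors to day 4 limma called 0 of 4 genes, with 2 at an unadjusted p below 0.05, and 0.00% of all 12056 genes, with 1129 unadjusted. Replicate numbers paired these groups too (r from 0.23 to 0.43), and with a replicate block limma also called 0 of the 4. Msr1 was higher in 3 of 3 by 5.38 ± 1.49 (adjusted p = 0.50) and Cd68 in 3 of 3 by 2.10 ± 0.91 (0.52). Without ER-Hoxb8 progenitor replicate 2, Msr1 was higher by 7.83 (adjusted p = 2.6e-06), Cd68 by 2.90 (0.062), and 1331 of 11980 genes passed. Relative to BM progenitors, ER-Hoxb8 progenitors had more Cd68, by 3.22 ± 0.91 (limma, adjusted p = 0.022, 2 of 3 above all), which was 1 of 4 genes, against 25.5% of all genes. The call was lost without BM progenitor replicate 1 (3.03, adjusted p = 0.077) or 3 (3.18, 0.069) and without ER-Hoxb8 progenitor replicate 1 (2.59, 0.091) or 2 (2.42, 0.065), and with no filter (0.073). Msr1 had means of 3.49 in ER-Hoxb8 and 2.35 in BM progenitors (adjusted p = 0.62), and without ER-Hoxb8 progenitor replicate 2 the difference was -1.31 (0.022).

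Cd36 was at 2.65, 3.31 and 3.34 in BM progenitors, 3.46, 4.04 and 2.17 in monocytes, 6.84, 4.00 and 3.81 in ER-Hoxb8 progenitors and 5.00, 4.28 and 7.46 at day 4. Day 4 cells were above all BM progenitors and monocytes in Cd36, and ER-Hoxb8 progenitors were above BM progenitors in 3 of 3 (1.78 ± 0.91, limma, adjusted p = 0.17, or 2.23 and 0.12 without replicate 2). Scarb1 stayed between 6.67 and 7.89 in all 12 libraries. Cd5l was at -4.34, 2.82 and 0.68 in BM progenitors, -3.84, -3.44 and -4.34 in monocytes, -4.34, -1.48 and -4.34 in ER-Hoxb8 progenitors and -1.78, -1.29 and 0.49 at day 4, so that only BM progenitor replicates 2 and 3 and 1 day 4 library exceeded 0. Marco exceeded 0 in 1 library, BM progenitor replicate 2 (0.67).

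Markers of other cells varied in this set. From BM progenitors to monocytes the 6 border-macrophage markers, led by F13a1, went from 671 to 807 CPM to 5950 to 8920 CPM and the 5 macrophage markers, led by Csf1r, from 94.8 to 147 CPM to 854 to 1260 CPM. Neutrophil markers were at 6490 to 21200 CPM and 5290 to 13300 CPM. A further marker sum, not reported here, was far lower in monocytes and in ER-Hoxb8 progenitors than in BM progenitors. In ER-Hoxb8 progenitors and day 4 cells macrophage markers were at 366 to 3710 CPM and 2300 to 3840 CPM, border-macrophage markers at 196 to 2280 CPM and 750 to 2250 CPM, neutrophil markers at 44.8 to 2770 CPM and 52.7 to 73.8 CPM and proliferation markers at 36.9 to 468 CPM and 363 to 807 CPM. Their part in the levels of the 6 genes was not tested.

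**Figure D4:**
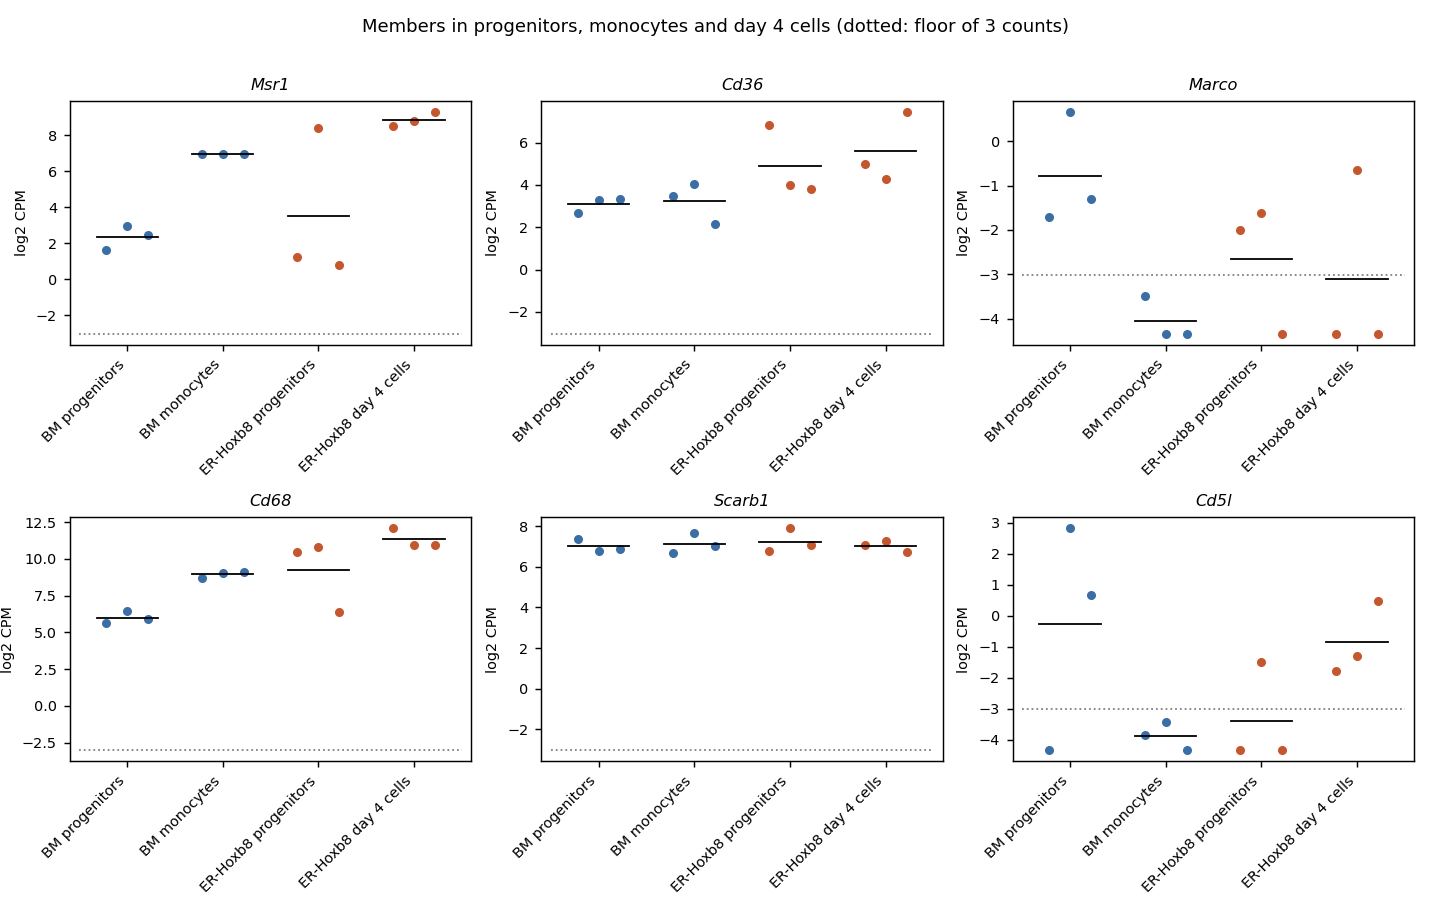
Levels of the 6 genes (log2 CPM, y axis) in BM progenitors, BM monocytes, ER-Hoxb8 progenitors and ER-Hoxb8 day 4 cells; points are libraries, lines are group means and the dotted line is the floor of 3 counts. In Msr1, 1 of the 3 ER-Hoxb8 progenitor libraries lies at 8.39, beside the day 4 cells, and the other 2 at 1.26 and 0.81.

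The lists in these early cells stand beside 25.5% of all genes called between the progenitors and 13.8% between monocytes and BM progenitors. They showed Pparg, a nuclear receptor that controls Cd36 among other genes, higher in ER-Hoxb8 than in BM progenitors by 6.95 ± 1.15 (limma, adjusted p = 0.00098), with Nr1h3 at 3.82 ± 0.51 and 3 of 9 transcription factors higher and 0 lower (median 1.26 against -0.08 over all genes). Lipid genes were higher for 6 of 9 (Fabp5 4.76 ± 0.75, Fabp4 4.65 ± 0.89; median 3.27), other scavenger receptors higher for 3 and lower for 1 of 12 (Stab1 2.77 ± 0.72, Scarb2 1.93 ± 0.29, Cd163 -5.22 ± 1.24; median 1.28), and 1 of 8 interferon-stimulated genes lower (Oasl1 -4.52 ± 0.67; median -0.72). Without ER-Hoxb8 progenitor replicate 2, 7 lipid genes were higher, 2 transcription factors and 2 scavenger receptors lower, and interferon-stimulated genes higher for 1 and lower for 5. In that fit 3417 of 11980 genes passed. In monocytes 2 of 12 other scavenger receptors (Cd44 1.34 ± 0.22, Scarb2 1.22 ± 0.29; median 0.55 against -0.09 over all genes), 3 of 9 lipid genes (Soat1 2.72 ± 0.40; median 1.31), 3 of 9 transcription factors (Rxra 2.45 ± 0.71, Spi1 2.33 ± 0.54; median 1.04) and 1 of 8 interferon-stimulated genes (Mx1 2.84 ± 0.68; median 2.05) were higher than in BM progenitors.

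At day 4 limma called 0 genes on each list and 0.00% of all genes, with 5 of 12 other scavenger receptors, 3 of 9 lipid genes, 2 of 9 transcription factors and 3 of 8 interferon-stimulated genes at an unadjusted p below 0.05 (medians 0.66, -0.13, 0.45 and 1.98 against -0.01). At that unadjusted p 1129 of 12056 genes passed. Without ER-Hoxb8 progenitor replicate 2 the lists had 4 higher and 1 lower, 2 higher, 2 higher and 5 higher in that order, where 1331 of 11980 genes passed.

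**Figure D5:**
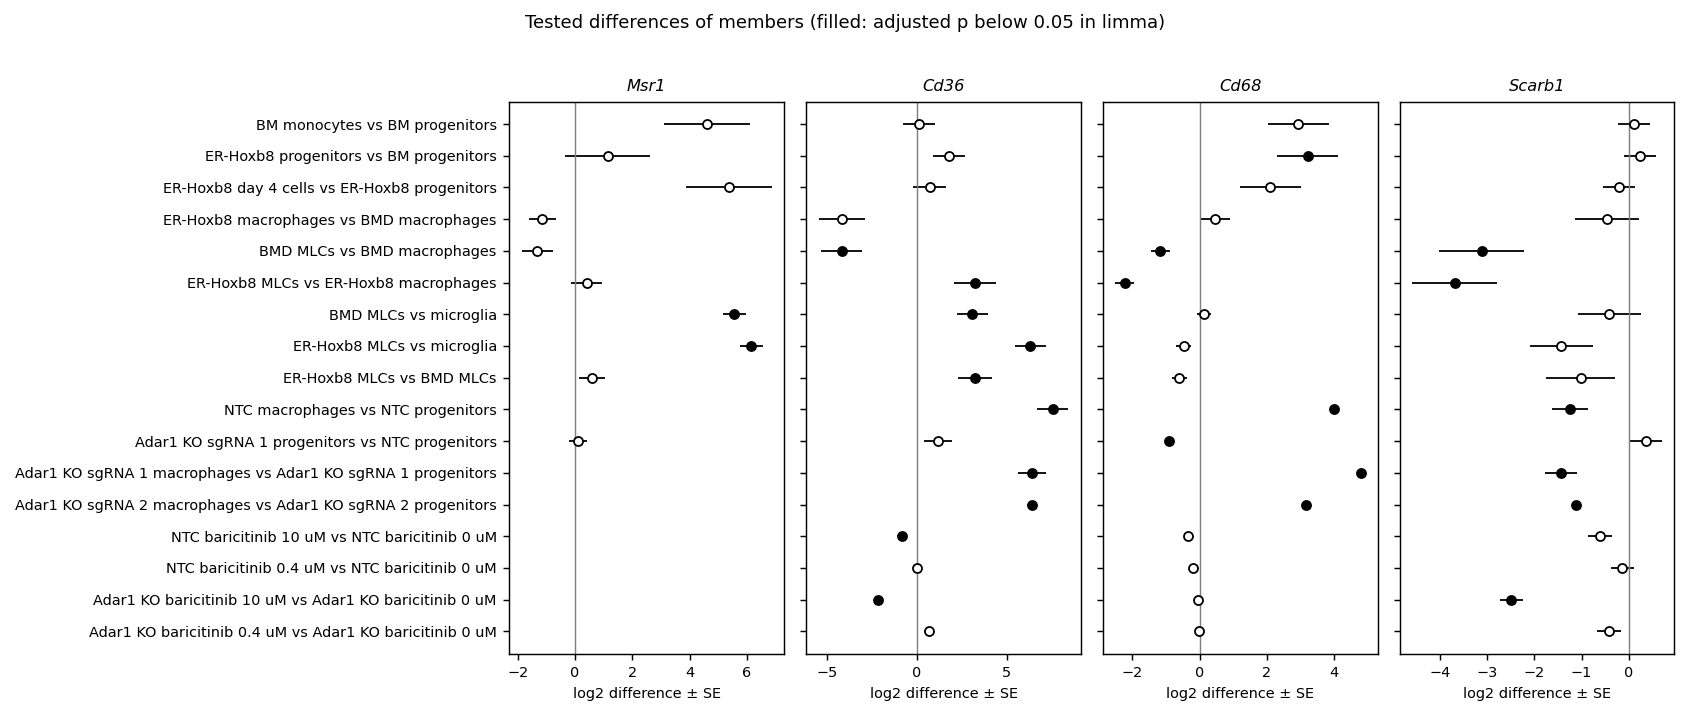
Tested differences of the genes in each comparison for Msr1, Cd36, Cd68 and Scarb1 (log2 difference on the x axis, points with bars of 1 SE). Points are filled where the adjusted p of limma is below 0.05. Those given as descriptions are left out, except Msr1 between sgRNA 1 and NTC progenitors. Cd36 falls from BMD macrophages to BMD MLCs (-4.20) and rises from ER-Hoxb8 macrophages to ER-Hoxb8 MLCs (3.22), and Scarb1 falls with 10 µM baricitinib in Adar1 KO (-2.49).

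Some genes ran closely alongside members of the set, measured by Pearson's r and given as a description, since the libraries of a group share their cells. Over the 27 libraries of macrophages in vitro and brain cells the closest were Limd1 (0.95), Mdfic (0.94) and Sash1 (0.93) for Msr1, Sdc3, Gyk and Ell2 (0.87 each) for Cd36, and Cd200r4 (0.91), Cd200r1 (0.91) and Idh1 (0.90) for Cd68. For Scarb1 they were Stk10, 2310011J03Rik and Srebf2 (0.94 each), the last a transcription factor of cholesterol synthesis. Cd5l was closest to Stra6l (0.84), Arhgap10 (0.83) and Mmp12 (0.82) although it failed the filter there. It was at or under the floor in 16 of these 27 libraries. Without microglia replicate 8, a choice made after the data were seen, r was 0.83 for Sdc3 and 0.81 for Gyk and Ell2, and the others moved by at most 0.01. For Marco the genes of highest r fell from 0.72 or more to 0.45 or less, so none is named.

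Over the 33 baricitinib libraries the closest genes were Vta1 (0.92) and Wdr43 (0.92) for Msr1, Slc37a2 (0.97), Myo1e (0.97) and Il6st (0.96) for Cd36, and Sec24d (0.98), Slc25a10 (0.97) and Elmo2 (0.97) for Scarb1. For Cd5l they were Pmp22 (0.98), Anxa2 (0.97) and Epas1 (0.97), for Cd68 Serpinb1c (0.73), Nagk (0.72) and Mdfic (0.70), and for Marco St3gal1 (0.78), Tyrobp (0.77) and Arl1 (0.75). Marco failed the filter and was at or under the floor in 29 of the 33 libraries, so its r values rest on counts near 0. Cd5l was at or under the floor in 11 of the 33. Its r values also include the difference between Adar1 KO and NTC on which it was chosen. Without Adar1 KO replicate 2 at 0.4 µM, Nagk had 0.81 and no other of these values moved by more than 0.02. Among the members themselves, Cd36 ran with Scarb1 (r = 0.90) and Cd5l (0.86), and Msr1 ran against Scarb1 (-0.86) and Cd36 (-0.76, or -0.80 without that replicate). The 33 libraries form 10 groups of 3 or 4.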

How the data were processed

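The deposited table holds log2 CPM normalized by TMM, which the authors made from kallisto 0.46.0 output; the values were used as given, and the prior count of 2 was assumed. Libraries were divided into sets by their lowest value and compared only within a set. Genes that exceeded 1 CPM in 3 or more libraries (6 where brain cells were included) were tested with limma 3.58.1 in R 4.3.3, with Benjamini-Hochberg adjustment per comparison and a threshold of 0.05. The 6 genes, 4 gene lists and 14 marker lists were chosen with earlier results known. Contrasts of Adar1 KO and NTC macrophages, without drug or at the same dose, were described without tests. The difference between their changes with baricitinib was tested for Cd36, Cd68 and Scarb1. Msr1 and Cd5l were only described in contrasts that use these groups, as was either gene where it passed the filter through its high libraries. Of each list at most 2 called genes in each direction, those with the largest differences, are named, and up to 3 genes with the highest correlation per member; some genes and marker sums are not reported. Replicate numbers were checked for pairing between groups by correlating residuals. Pairing showed between ER-Hoxb8 progenitors and day 4 cells and between sgRNA 1 and NTC progenitors, the tests are unpaired, and a replicate block changed no call of the 6 genes there. In the baricitinib series library names count in runs of 5, 1 library per dose, and the replicate number of 10 of the 33 libraries is not that of their run, so a replicate block joins different runs there. Of 20 group pairs, none with 3 or more pairs of libraries from the same run had every r above 0.1, and NTC at 0 and 0.0006 µM, with 2 such pairs, had 0.17 and 0.25. Differences between changes were added after the data were seen. The code was tested on simulated data. Tables and figures used Python 3.11.15, numpy 2.4.6, pandas 2.3.3 and matplotlib 3.10.9.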

Additional observations from a re-analysis of the deposited data

Results flagged for a closer look

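A library was listed when it stood off from the rest of its group by more than a rule allows. Chance meets the rule in about 1 in 20 tests where values lie well above the floor. It was met in 8 of 39 tests of a gene in a group, and the 8 lie in 4 groups. Many values of Marco and Cd5l are at or under the floor, so that rate does not hold for them.

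Msr1 was 5.31 in microglia replicate 8 (others 1.20 to 2.57) and 9.25 in NTC at 0.4 µM baricitinib replicate 4 (others 9.00 to 9.02). Cd36 was -3.62 in microglia replicate 8 (others 0.87 to 2.79) and 9.37 in NTC at 0.4 µM replicate 4 (others 8.78 to 8.80). Marco was -1.65 in ER-Hoxb8 MLC replicate 3 (others -3.62), 4.15 in microglia replicate 8 (others -3.62 to -0.47) and -1.21 in sgRNA 2 macrophage replicate 2 (others -3.56 to -3.01). Cd5l was -3.56 in sgRNA 2 macrophage replicate 1 (others -3.01 to -2.81).

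Changes that differed between groups were 7.41 for Cd36 (culture to brain, ER-Hoxb8 minus BMD), -1.33 for Cd36 and -1.88 for Scarb1 (10 µM baricitinib, Adar1 KO minus NTC).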

How the results depend on the processing

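Alternatives were other scales and normalizations, no filter, a fold limit, library weights, a replicate block and leaving out each library. Few libraries per group limit all of them, and the cause of moved results was not tested. The differences between changes, correlations without 1 library, list differences without it and the block of library names were chosen after seeing the data.

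Members called are given as first result and then alternatives. These counts include Cd5l in early cells and macrophages in culture, Msr1 and Cd5l in NTC at 10 µM, and Msr1 between sgRNA 1 and NTC progenitors. The report only describes these. The call between ER-Hoxb8 and BMD macrophages was that of Cd5l, and Cd5l was also called in NTC at 10 µM. Shares of all genes under each alternative are not given, so nothing is read from these counts. BM monocytes against BM progenitors: 0, then 2 with log2(CPM + 1), 2 with quantile normalization, 1 with median centring, 2 with a replicate block, 3 with library weights, and 0 to 1 leaving out 1 library. ER-Hoxb8 against BM progenitors: 1, then 0 with no filter and 0 to 1 leaving out 1. ER-Hoxb8 day 4 cells against progenitors: 0, then 0 to 1 leaving out 1. ER-Hoxb8 against BMD macrophages: 1, then 0 with no filter, 0 with a replicate block, 3 with library weights, and 0 to 0 leaving out 1.

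ER-Hoxb8 against BMD MLCs: 1, then 2 with quantile normalization, 0 with only the WTHox libraries (ER-Hoxb8 MLC replicates 4 to 6), and 0 to 2 leaving out 1. The sgRNA 1 against NTC progenitors: 1, then 0 with the fold limit. NTC at 10 against 0 µM: 2, then 0 with the fold limit, 1 with no filter, 1 with runs of library names as a block, 4 with library weights, and 1 to 2 leaving out 1. Adar1 KO at 0.4 against 0 µM: 0, then 1 with library weights; with runs of library names as a block 2 interferon-stimulated genes were called in place of 4. The difference of culture-to-brain changes: 1, then 2 with a replicate block.

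Adar1 KO against NTC macrophages, sgRNA 1: members without overlap 1, then 2 with quantile normalization and 1 to 3 leaving out 1. Msr1 differed by 2.33, then 1.98 with quantile normalization (2.23 to 2.43 leaving out 1). Cd5l differed by -5.78, then -4.87 with log2(CPM + 1) and -6.02 with quantile normalization (-5.87 to -5.69 leaving out 1). At 0 µM Cd5l differed by -5.56, then -3.45 with log2(CPM + 1) (-5.99 to -5.21 leaving out 1). With log2(CPM + 1) it went from -6.16 to -3.67 at 0.0006 µM, from -6.81 to -4.10 at 0.016 µM and from -3.40 to -1.88 at 10 µM. Msr1 at 0.4 µM differed by 0.56, then 0.28 with quantile normalization. Cd68 with sgRNA 1 differed by -0.10, then -0.29 with quantile normalization, and Marco, near its floor, by 0.73 and 1.58 at 0.4 and 10 µM, then 0.14 and 0.48 with log2(CPM + 1).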
